A study of Homo sapiens with 12 samples.

Results

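Chromosome 19 carries the densest collection of zinc finger genes in the human genome, and 176 of them were measured here in transfected HEK293T cells. The members were all genes with a symbol of ZNF and a number, with or without a final letter, that lie on chromosome 19 of the hg38 build and had a gene FPKM of at least 1 in at least 2 of 6 poly-A RNA libraries. FPKM counts fragments per kilobase of transcript, scaled to the mapped fragments of the library, and was summed over the transcripts of a gene. Of 263 listed genes with such a name, 176 reached this floor and 87 did not. RefSeq classes 246 of the 263, and 173 of the 176, as protein coding. The members were chosen on their FPKM, so their presence above the floor is a description and carries no test.

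The study asked whether fragments of the BCL2L11 and TRIM9 transcripts trigger target-directed microRNA degradation, a process where a microRNA is lost after it pairs extensively with a target RNA. HEK293T is a line of human embryonic kidney cells that carries the SV40 large T antigen. Every culture received 2 µg of a plasmid with a GFP reporter, and RNA was taken 48 h later. The GFP group had the reporter alone, the BCL2L11 group had a reporter with a BCL2L11 trigger in its 3′ untranslated region, and the TRIM9 group had a TRIM9 trigger there. Each group had 2 libraries, described by the submitters as biological replicates. Cells were transfected with polyethylenimine or lipofectamine, and the sources used here do not say which of them each library received. The libraries are numbered in their titles, and numbers 1 to 3 (one library of each group) are called set 1 here, numbers 4 to 6 set 2. The labels do not say that the numbers mark a batch or a pair, so what separates the sets is not known.

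Most of these genes encode proteins with long arrays of zinc fingers of the Cys-His type, each of which contacts a few bases of DNA. Many also carry a KRAB domain, which binds the corepressor TRIM28. TRIM28 in turn brings the histone methyltransferase SETDB1, and together they silence transposable elements in embryonic and many adult cells. The genes multiplied by tandem duplication, and so lie in clusters of related sequence.

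The files gave 3397 to 4523 megabases aligned to exons per library, and 13830 to 14598 genes with an FPKM of at least 1. BCL2L11 stood at 11484 and 11275 FPKM in the libraries of its own trigger and at 3.95 to 6.32 in the other 4. TRIM9 stood at 5297 and 3948 in its own libraries and at 1.21 to 2.92 elsewhere, so each label fitted its plasmid. Of 8 genes typical of HEK293T, 7 reached the floor, among them VIM, LIN28B and IRS4, and PAX2 did not. Of 16 markers of blood, fibroblasts, liver and neurons, PTPRC, CD3E and HBB were listed at 0 in all 6 libraries and 6 reached the floor: HBA1 with a mean of 4.84 FPKM, COL1A1 with 2.36, SYT1 with 1.81, CD14 with 1.65, RBFOX3 with 1.14 and ALB with 1.11. The summed FPKM of 5 blood markers was 4.12 to 10.01 that of 5 fibroblast markers 1.34 to 5.97, of 3 liver markers 0.632 to 2.97 and of 3 neuron markers 2.39 to 3.99, against 486 to 623 for the HEK293T markers. Set 2 libraries held more of the longer transcripts: the median transcript length weighted by FPKM was 1698 to 1786 bases in set 1 and 2093 to 2188 bases in set 2.

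The chromosome 19 zinc finger genes were expressed at low levels. Their mean FPKM over the 6 libraries ranged from 0.595 to 35.9, with a median of 2.12. The median was 4.59 in 220 ZNF genes of other chromosomes, 8.85 in 784 other genes of chromosome 19 and 6.30 over all 15183 genes at the floor. Of the 176 members 10 averaged at least 10 FPKM, 25 at least 5, 131 between 1 and 5, and 20 under 1. The 10 highest held 36.0% of the summed FPKM of all members. Summed over the members, FPKM was 561 to 659 in the libraries of set 1 and 658 to 743 in those of set 2.

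ZNF146 (chr19:36214602-36238774, plus strand), whose protein consists of zinc fingers with no KRAB domain, had the highest mean level. It stood at 35.1, 27.1 and 25.7 FPKM in GFP, BCL2L11 and TRIM9 of set 1 and at 44.5, 39.3 and 43.5 in set 2. Every set 2 library lay above every set 1 library. ZNF428 (chr19:43607224-43619629, minus strand) came next, with 16.6, 71.5 and 56.9 FPKM in set 1 and 22.4, 21.5 and 22.4 in set 2. Its mean of 35.2 therefore rested on the BCL2L11 and TRIM9 libraries of set 1, and the other 4 libraries lay between 16.6 and 22.4. ZNF580, ZNF787, ZNF581, ZNF358 and ZNF444 followed with means of 29.7, 25.5, 24.6, 22.6 and 22.1 FPKM. ZNF579, ZNF317 and ZNF414 had means of 13.3, 12.8 and 12.3. ZNF473, which takes part in processing the ends of histone messenger RNAs, and ZNF302 both averaged 9.53. The library ranges of neighbours in this order overlapped throughout.

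**Figure D1:**
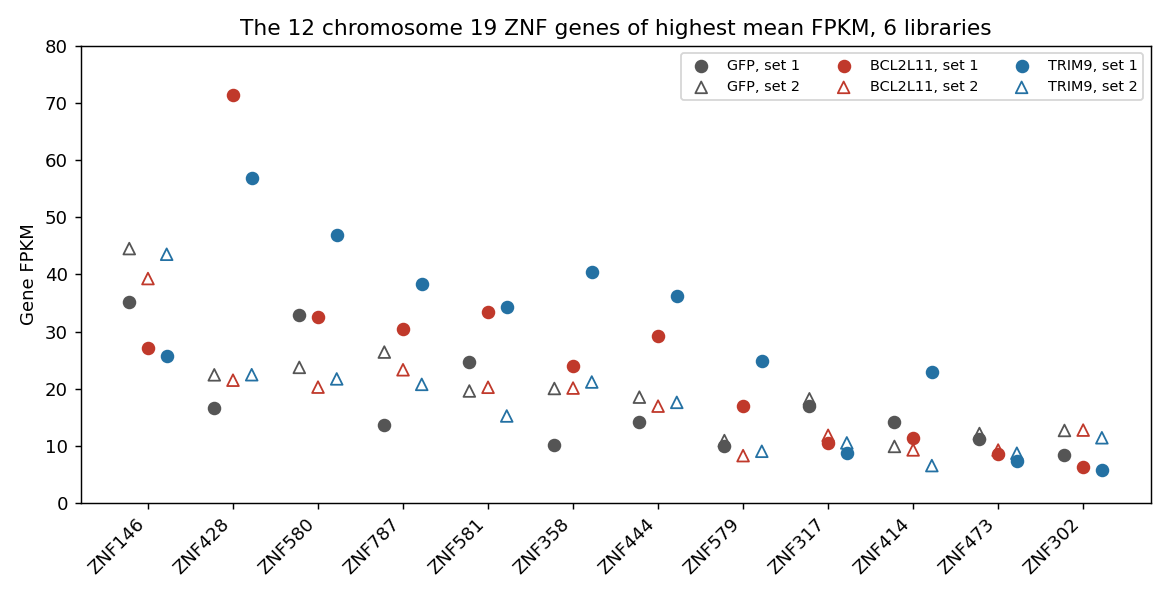
Gene FPKM (linear axis) of the 12 chromosome 19 ZNF genes of highest mean level, with 1 point for each of 6 libraries; filled circles are set 1, open triangles set 2, and colour gives the transfected plasmid. The BCL2L11 and TRIM9 points of set 1 stand above the other 4 for ZNF428, ZNF787, ZNF581, ZNF358, ZNF444 and ZNF579 and below them for ZNF146, ZNF317, ZNF473 and ZNF302.

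Several of these genes have known targets, and their levels ranged from 0 to well above the members' median. ZNF91, which silences SVA elements, had 0.736, 0.539 and 0.564 FPKM in set 1 and 1.24, 0.942 and 1.69 in set 2. The pair ZNF417 and ZNF587, which act on young endogenous retroviruses, averaged 2.36 and 4.46 FPKM. ZNF274, which binds the 3′ ends of other zinc finger genes and recruits SETDB1 there, averaged 8.40 FPKM with a range of 6.49 to 11.2. ZNF224, a KRAB repressor of the aldolase A gene, had 3.31, 1.78 and 1.19 FPKM in set 1 and 4.34, 3.38 and 4.13 in set 2. ZNF93, a repressor of LINE elements, did not reach the floor, and its highest library stood at 0.0822 FPKM. ZNF43 was listed at 0 in all 6 libraries. ZNF808, which represses transposable elements in the developing pancreas, did not exceed 0.133 FPKM, and the imprinted gene ZNF331 did not exceed 0.382.

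The floor cut through a continuous range. By their second-highest library, the members just inside were ZNF701 at 1.04, ZNF329 at 1.03, ZNF177 at 1.01 and ZNF540 and ZNF547 at 1.002 FPKM. Just outside were ZNF582 at 0.975, ZNF583 at 0.901, ZNF699 at 0.826, ZNF792 at 0.802 and ZNF223 at 0.796. The sets did not contribute equally. Of the 176 members, 168 reached 1 FPKM in at least 2 libraries of set 2 and 123 in at least 2 of set 1, 24 reached it in no set 1 library, and 98 reached it in all 6. Of the 87 genes below the floor, 24 were listed at 0 throughout.

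The transcripts of these genes were long, with few exons. The median transcript length, weighted by FPKM within each gene, was 3252 bases, against 1862 bases in other genes of chromosome 19, 3477 bases in ZNF genes elsewhere and 2532 bases over all tested genes. The transcript of highest level had a median of 4 exons in the members, 5 in other ZNF genes and 7 over all genes. In the usual build of the family a single long last exon encodes the whole finger array. Lengths ran from 727 bases in ZNF56 and 991 in ZNF880 to 10169 in ZNF805 and 13035 in ZNF431. Abundant members were found at both short and long lengths, with ZNF428 at 1133 bases, ZNF581 at 1196 and ZNF580 at 1316, and with ZNF146 at 3471, ZNF317 at 3904 and ZNF473 at 4550. The leading transcript supplied a median of 67.2% of a member's FPKM, and in 49 members it supplied under 50%.

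The 263 listed genes fell into 17 groups when neighbours more than 1 Mb apart were separated. The share that reached the floor differed widely along the chromosome. In the group from 19.7 to 24.1 Mb beside the centromere (cluster 6 in order from the short-arm end), 15 of 42 genes did, led by ZNF738 at 5.25 FPKM. ZNF91, ZNF93 and ZNF43 belong to this group. From 36.2 to 37.8 Mb (cluster 10), 25 of 27 did, led by ZNF146. From 43.5 to 45.1 Mb (cluster 13) the count was 17 of 25, led by ZNF428, and from 51.6 to 53.6 Mb (cluster 16) it was 26 of 42, led by ZNF480 at 3.90 FPKM. The last group, from 55.5 to 58.5 Mb (cluster 17), was the biggest, with 49 of 60 genes at the floor and ZNF580 in the lead. Cluster 2, from 7.1 to 9.8 Mb, held 12 members of 16 genes and had ZNF358 at its head.

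Promoter sequences were compared because duplicated genes often keep their control regions. RefSeq (GRCh38.p14) gave a promoter of 250 bases before to 50 bases after a start for 158 of the 176 members, and the start nearest to the 5′ end of the leading transcript was used. That start lay within 1000 bases of the listed end in 143 members and farther away in 15, up to 55334 bases in ZNF91. Motifs were chosen after earlier views of these sequences, were searched on both strands, and are descriptions of letters, not of binding. The element ACTACANTT, part of the sequence bound by the activator ZNF143, occurred in 28 of 158 member promoters (17.7%). The share was 9.60% in ZNF genes of other chromosomes, 2.96% in other tested genes of chromosome 19, 2.21% over all tested genes and 1.47% of all RefSeq promoters. Among the ZNF genes of chromosome 19 below the floor, 2 of 58 had it (3.45%). Few of those genes lie in cluster 10, where 25 of 27 reached the floor. The matches were concentrated in clusters 10 and 13, where 13 of 24 and 9 of 16 member promoters carried one, against 6 of 118 in the remaining clusters. With only the promoters within 1000 bases of the listed end, a choice made after seeing the data, 25 of 143 members (17.5%) and 2.25% of all tested genes had it, among them 11 of 22 in cluster 10 and 8 of 15 in cluster 13. All 30 matches lay before the start, with the centre at a median position of −73.5 from the start, and 21 of them within 100 bases. In 24 of the 30 the element ran on into CCCAG.

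The windows of 30 bases below show the element, in capitals, in the 5 members of highest level that carry it and in 4 neighbours from clusters 10 and 13. Each is written 5′ to 3′ along the strand that holds the motif, named in brackets, with hg38 coordinates. The capitals are alike because the search fixed them, and the bases after them differ: CCCAG follows in 5 of the 9 windows.
ZNF146 (chr19:36214966-36214995, minus): tcaggccttggACTACATTTcccttgaggc
ZNF444 (chr19:56141048-56141077, minus): ccaacactggaACTACATTTcccaagatac
ZNF317 (chr19:9140307-9140336, plus): aaacttcaaaACTACAATTcccagcatcct
ZNF121 (chr19:9584620-9584649, minus): ccgggaagaaACTACAATTtctgtgtttga
ZNF584 (chr19:58408590-58408619, minus): gcgggacgtgaACTACATTTcccataagga
ZNF260 (chr19:36528371-36528400, plus): tttgagggtagACTACATTTcccagaaggt
ZNF569 (chr19:37467439-37467468, plus): tcctgcgccgaACTACATTTcccagaggcc
ZNF45 (chr19:43935293-43935322, plus): ggagctctggaACTACATTTcccagcatcc
ZNF234 (chr19:44141525-44141554, minus): tgattggcgggACTACATTTcccagaattc

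The variable letter of the element was T in 20 matches, A in 4, C in 4 and G in 2. ZNF420 and ZNF225 carried the element at 2 positions each. ZNF568 and ZNF829, which are transcribed away from each other, were assigned the same element between them. Genes of a cluster share ancestry, so their promoters are not independent samples. Members with the element had a median mean level of 1.28 FPKM and those without it 2.17.

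Other short motifs are given as shares in the same way, without a test. The core CCGGAAG, bound by ETS-family factors, occurred in 44.3% of member promoters, 36.2% of those of other ZNF genes and 20.5% over all tested genes. The CCAAT box with its flank, CCAATCA, occurred in 24.1%, 16.4% and 9.82%. The GC box GGGCGG was less common in members, at 63.9% against 74.3% over all tested genes, and so was the TATA box TATAAA, at 3.16% against 5.05%. The E-box CACGTG was found in 5.06% against 10.4%, and the cAMP response element TGACGTCA in 5.06% against 3.58%. Over all RefSeq promoters the shares of these 6 motifs were 10.6%, 7.17%, 43.8%, 12.1%, 7.28% and 1.94%. Each motif was searched alone, and 7 members held both ACTACANTT and CCGGAAG. The median GC content was 61.0% in the members, 63.0% in other ZNF genes and 67.0% in other genes of chromosome 19.

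**Figure D2:**
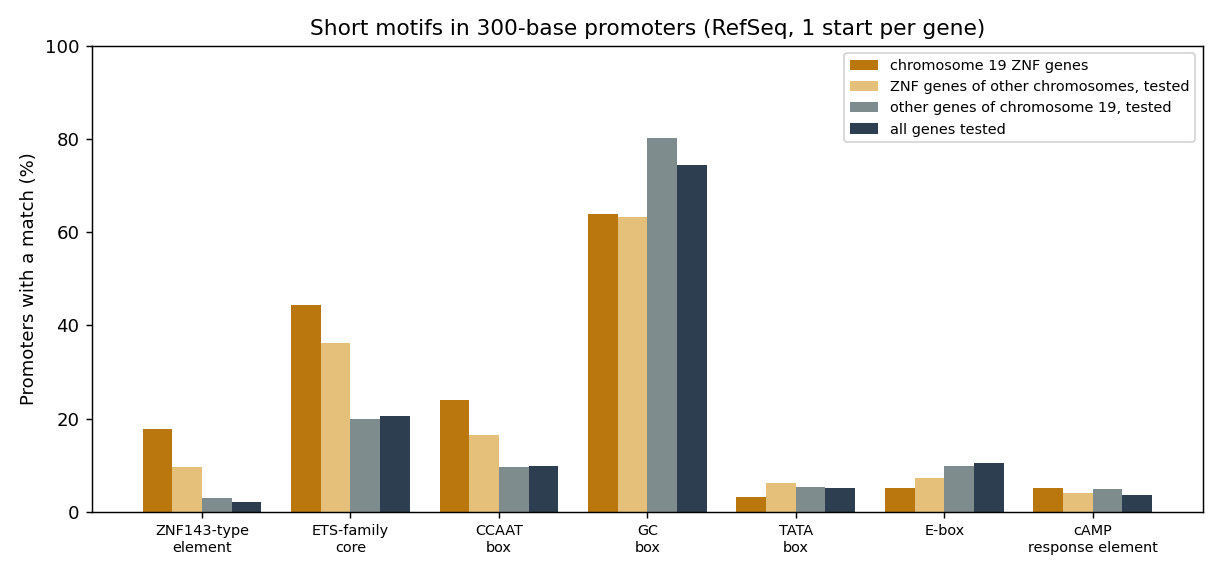
Share of 300-base promoters (percent, linear axis from 0) that hold each of 7 short motifs on either strand, in the 158 members with a promoter, in ZNF genes of other chromosomes, in other tested genes of chromosome 19 and in all tested genes. The ZNF143-type element stands at 17.7% in the members against 2.21% over all tested genes, and the ETS-family core at 44.3% against 20.5%.

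The first question of the design was whether the BCL2L11 trigger moved these genes. None of the 176 passed limma's test with Benjamini-Hochberg adjustment over 15183 genes at an adjusted p under 0.05, and 1 had an unadjusted p under 0.05 (0.568% of members, 0.547% of all genes). Of all genes 0.00659% passed, which is the BCL2L11 gene's count of 1. On the log2(FPKM + 1) scale, which understates changes of genes near 1 FPKM, the members' median difference from GFP was −0.14, beside −0.08 over all genes. It was −0.14 within set 1 and −0.11 within set 2. In bulk RNA a lower level can come from fewer expressing cells or from less RNA per cell, which cannot be told apart. The p-values here measure only the spread between these libraries. The trigger fits left library set out, so this spread includes the difference between the sets. Counts from a fit with library set as a term are given further below. By leaving out 1 library the median ran from −0.33 without the BCL2L11 library of set 2 to 0.10 without the GFP library of set 2, and it was 0.06 without the BCL2L11 library of set 1, so its direction depended on single libraries.

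The lowest p belonged to ZNF564, with 1.30, 0.547 and 1.195 FPKM in GFP, BCL2L11 and TRIM9 of set 1 and 1.85, 0.708 and 1.12 in set 2. Both BCL2L11 libraries were the lowest of their sets, at a log2 difference of −0.66 (SE 0.27, unadjusted p = 0.0451 and adjusted p = 0.9999 by limma). ZNF562 had 6.03 and 5.10 FPKM in the GFP libraries and 1.69 and 3.43 in the BCL2L11 libraries, a log2 difference of −0.92 (SE 0.41, adjusted p = 0.9999 by limma). ZNF428 showed the biggest positive difference, 0.99 (SE 0.64, adjusted p = 0.9999 by limma). This came from set 1, where the BCL2L11 library exceeded GFP by 2.04 on the log2 scale, while in set 2 the difference was −0.06.

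Against the TRIM9 trigger again 0 of 176 members passed by limma, with 2 at an unadjusted p under 0.05 (1.14% of members, 1.15% of all genes), and 0.00659% of all genes were called. The median difference was −0.12, beside −0.04 over all genes, and within the sets it was −0.16 and −0.14. It ranged from −0.37 without the TRIM9 library of set 2 to 0.08 without that of set 1, and was 0.05 without the GFP library of set 2. ZNF317 (chr19:9140397-9163424, plus strand) had the lowest p. Its FPKM was 16.99 in GFP, 10.4 in BCL2L11 and 8.70 in TRIM9 of set 1, and 18.2, 11.8 and 10.5 in set 2. The same order of the groups was seen in both sets, and both GFP libraries lay above all 4 trigger libraries. The TRIM9 difference was −0.82 (SE 0.28, unadjusted p = 0.0238 and adjusted p = 0.9999 by limma) and the BCL2L11 difference −0.62 (SE 0.28, adjusted p = 0.9999 by limma).

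ZNF14 stood at 4.23, 2.72 and 1.56 FPKM in set 1 and at 3.62, 3.59 and 2.22 in set 2, so TRIM9 was lowest in both sets (log2 difference −0.78, SE 0.31, unadjusted p = 0.0397 and adjusted p = 0.9999 by limma). ZNF773 had 3.04, 1.79 and 0.798 FPKM in set 1 and 2.57, 2.24 and 1.81 in set 2. ZNF358 gave the highest positive value at 0.98 (SE 0.44, adjusted p = 0.9999 by limma). It had 10.2, 23.9 and 40.4 FPKM in set 1 and 20.0, 20.1 and 21.2 in set 2, so that the libraries of set 1 spread widely and those of set 2 lay close together. ZNF524 had 2.21, 4.02 and 5.55 FPKM in set 1 and 1.93, 2.18 and 3.003 in set 2, with TRIM9 highest in both.

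Between the triggers 0 of 176 members passed and 0 had an unadjusted p under 0.05 by limma, where 0.645% of all genes did and 0.0132% were called. The median difference, BCL2L11 minus TRIM9, was 0.01, with −0.04 over all genes and a range on leaving out single libraries of −0.16 (without the BCL2L11 library of set 2; −0.15 without the TRIM9 library of set 1) to 0.23 (without the TRIM9 library of set 2; 0.22 without the BCL2L11 library of set 1). The lowest p were those of ZNF177 and ZNF226. ZNF177 had 0.102 and 0.345 FPKM with BCL2L11 and 1.16 and 0.718 with TRIM9 (log2 difference −0.66, SE 0.33, adjusted p = 0.99999 by limma). Nearly all of its 1.16 FPKM in the TRIM9 library of set 1 was listed under an 1835-base transcript. That transcript stood at 0 in every other library. ZNF226 had 6.20 and 4.32 FPKM with BCL2L11 and 3.18 and 3.03 with TRIM9, a log2 difference of 0.59 (SE 0.31, adjusted p = 0.99999 by limma).

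The GFP libraries were the common control of both trigger comparisons, so those comparisons are not independent. A count chosen after the data were seen puts them together. In 23 of 176 members (13.1%) both GFP libraries lay above all 4 trigger libraries, where 5.77% of all tested genes did. ZNF317, ZNF473, ZNF266, ZNF77 and ZNF14 were among them. ZNF473 stood at 11.2 and 12.1 FPKM with GFP, at 8.61 and 9.25 with BCL2L11 and at 7.25 and 8.70 with TRIM9. In 2 members (1.14%), ZNF358 and ZNF114, both GFP libraries lay below all 4, where 1.76% of all genes did. None of these members passed the test. The spread of the members' differences was wider in set 1: their SD was 0.44 for BCL2L11 minus GFP and 0.53 for TRIM9 minus GFP in set 1, and 0.22 and 0.27 in set 2. In 81 of 176 members the BCL2L11 difference had opposite signs in the sets, and likewise in 81 for TRIM9. Transcript length moved with the differences of set 1. There TRIM9 minus GFP had a median of 0.28 in the 31 members under 2000 bases and −0.16 in the 43 of 2000 to 3000. It was −0.32 in the 45 members of 3000 to 4000 bases and −0.22 in the 57 of 4000 or more. Over all genes of these lengths the medians of set 1 were 0.12, 0.03, −0.08 and −0.14. In set 2 the members had −0.23, −0.14, −0.08 and −0.13. The part of length in these differences was not tested.

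**Figure D3:**
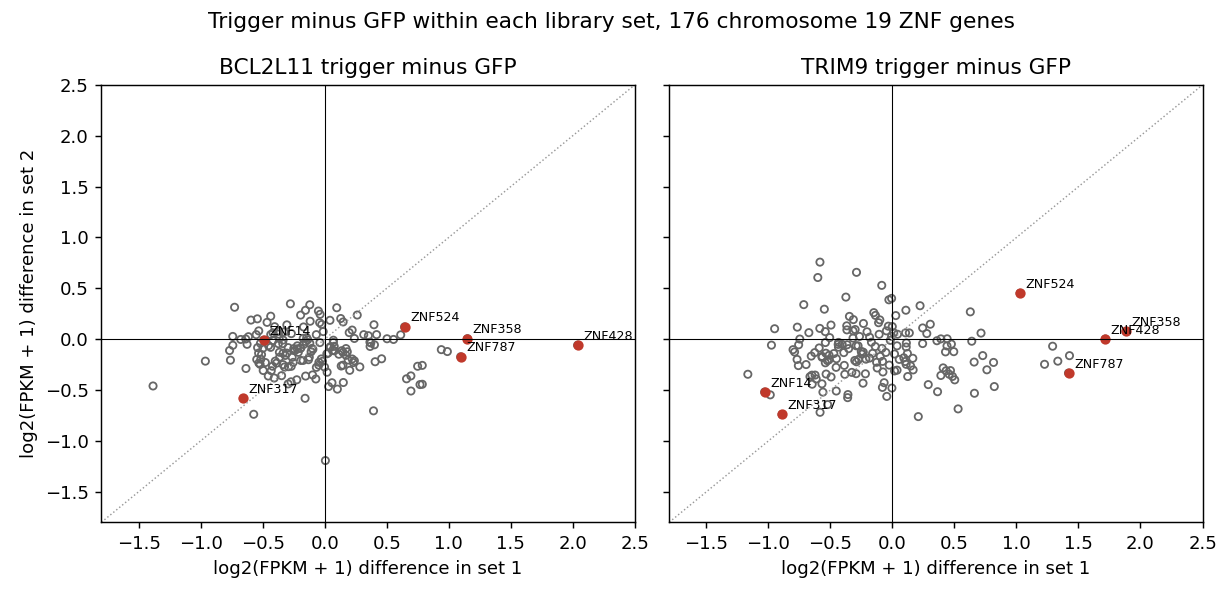
Difference from GFP in log2(FPKM + 1) within set 1 (x axis) and within set 2 (y axis) for the 176 members, BCL2L11 trigger on the left and TRIM9 trigger on the right; the dotted line marks equal differences. ZNF317 is lower than GFP in both sets of both panels, at −0.66 and −0.58 for BCL2L11, and ZNF428, ZNF358 and ZNF787 lie far to the right with values near 0 or below in set 2.

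In the authors' deposited table of the BCL2L11 comparison, 15 members appear among 5930 genes. ZNF414 had the lowest p-value of these there (0.0963), followed by ZNF317 (0.0983), with a log2 fold change of −0.58 for ZNF317. In the authors' deposited table of the TRIM9 comparison, 17 members appear among 6131 genes, and ZNF317 had the lowest p-value (0.112), with a log2 fold change of −0.81. In both of the authors' deposited tables the q-value of each of these members was close to 1 and 0 members had a p-value under 0.05, where 3.52% and 2.48% of all genes listed in them did.

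More of these genes passed between the library sets than in any trigger comparison. With the plasmid held in the model, 57 of 176 members (32.4%) were higher in set 2 and 3 (1.70%) were lower at an adjusted p under 0.05 by limma, where 22.5% of all genes were higher and 10.3% lower. The median difference, set 2 minus set 1, was 0.37 for the members and 0.06 over all genes. It was 0.33 in ZNF genes of other chromosomes, of which 33.6% were higher and 2.73% lower, and −0.33 in other genes of chromosome 19, of which 2.30% were higher and 17.2% lower. The median of the members had the sign of that of ZNF genes elsewhere and the opposite sign to that of their chromosomal neighbours, a comparison of groups that was not tested. In 86 members (48.9%) every set 2 library lay above every set 1 library, and in 7 (3.98%) every one lay below, where 31.7% and 18.2% of all genes did. Within GFP, BCL2L11 and TRIM9 alone the members' median differences were 0.37, 0.37 and 0.41, and 139, 140 and 134 members were higher in set 2. All 3 groups gave a higher value in 104 members and a lower one in 10. Of the HEK293T markers 3 were also higher in set 2 and 2 lower: IRS4 stood at 8.61, 9.46 and 15.97 FPKM in set 1 and at 65.9, 65.4 and 80.3 in set 2, and KRT18 at 31.6, 39.4 and 45.3 FPKM in set 1 and at 22.2, 18.3 and 22.1 in set 2. Their part in the members' difference was not tested.

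The choice of members favours genes higher in set 2, since a gene could enter through set 2 alone. Of the 57 higher members 21 had entered in that way and 36 also had at least 2 set 1 libraries at the floor. With members taken instead by a mean FPKM of at least 1, chosen after seeing the data, 54 of 156 were higher and 3 lower. The count also rested on single libraries: it was 12 to 18 of 176 in either direction when 1 library of BCL2L11 or TRIM9 was left out, and 81 without a GFP library. With each library first corrected for its dependence on transcript length, 15 were higher and 2 lower. With no filter on low values, or with the leading transcript of each gene in place of the sum, 0 members passed. Scaling also moved the split between the directions, to 50 higher and 8 lower with median-of-ratios factors and 37 and 9 with quantile normalisation. The shares of all genes under these settings are not given here. Whether these changes in count were particular to the members was not tested.

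ZNF714 (chr19:21082159-21125270, plus strand), a gene of cluster 6, showed the biggest set difference on the log2(FPKM + 1) scale. Its FPKM was 2.20, 1.36 and 2.29 in set 1 and 7.83, 8.12 and 8.13 in set 2. The sets did not overlap, with means 4.12-fold apart and a log2 difference of 1.63 (SE 0.16, adjusted p = 0.0111 by limma). ZNF724, from the same cluster, had 0.805, 0.771 and 0.796 FPKM in set 1 and 3.49, 2.93 and 3.58 in set 2, 4.22-fold higher. ZNF382, a KRAB repressor described as a tumour suppressor, had 0.384, 0.453 and 0.520 FPKM in set 1 and 2.43, 2.401 and 2.57 in set 2, 5.46-fold higher. The leading transcript of ZNF382, of 8336 bases, differed less, with set means of 0.358 and 0.550 FPKM. A 2742-base transcript was listed at 0 throughout set 1 and at 0.309, 1.24 and 0.880 in set 2.

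ZNF460 had 0.219, 0.439 and 0.155 FPKM in set 1 and 2.26, 1.81 and 1.60 in set 2. These 3 groups differed by less within a set than between the sets, and the means were 6.98-fold apart. ZNF615 had 1.47, 0.984 and 0.807 FPKM in set 1 and 3.92, 3.41 and 2.46 in set 2. ZNF649 had 1.26, 0.752 and 0.945 FPKM in set 1 and 3.33, 2.96 and 2.78 in set 2, 3.07-fold higher. In all 6 of these genes each set 2 library exceeded each set 1 library, and all had an adjusted p between 0.0111 and 0.0112 by limma. In 5 of the 6, all but ZNF714, under 2 set 1 libraries reached the floor (0 for ZNF724, ZNF382 and ZNF460 and 1 each for ZNF615 and ZNF649). These 5 were tested only because they were high in set 2, so their differences are a description and support nothing further. Such close adjusted values came from the Benjamini-Hochberg step, which gives neighbouring ranks the same value. Of the repressors named above, ZNF587 and ZNF224 were higher in set 2 (log2 differences of 0.72 and 0.73, adjusted p = 0.0271 and 0.0434 by limma), and so was ZNF146 (0.53, adjusted p = 0.0392 by limma). ZNF91 (0.50), ZNF274 (0.30) and ZNF417 (0.10) did not pass.

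The set difference varied between clusters. The counts below include members that had under 2 set 1 libraries at the floor, 21 of the 57 called higher, and are descriptions. Cluster 6 had a median of 0.66 with 9 of 15 members higher, cluster 10 a median of 0.53 with 13 of 25, and cluster 16 a median of 0.55 with 13 of 26. Cluster 17 had a median of 0.22, with 9 of 49 members higher and 3 lower. Cluster 13 had 0.29 and 4 of 17. Beside these counts stand the 32.4% of all members and the 22.5% of all tested genes that were higher, and the 10.3% of all tested genes that were lower. The 3 members lower in set 2 all belonged to cluster 17, and the overlapping neighbours ZNF580 and ZNF581 were among them.

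**Figure D4:**
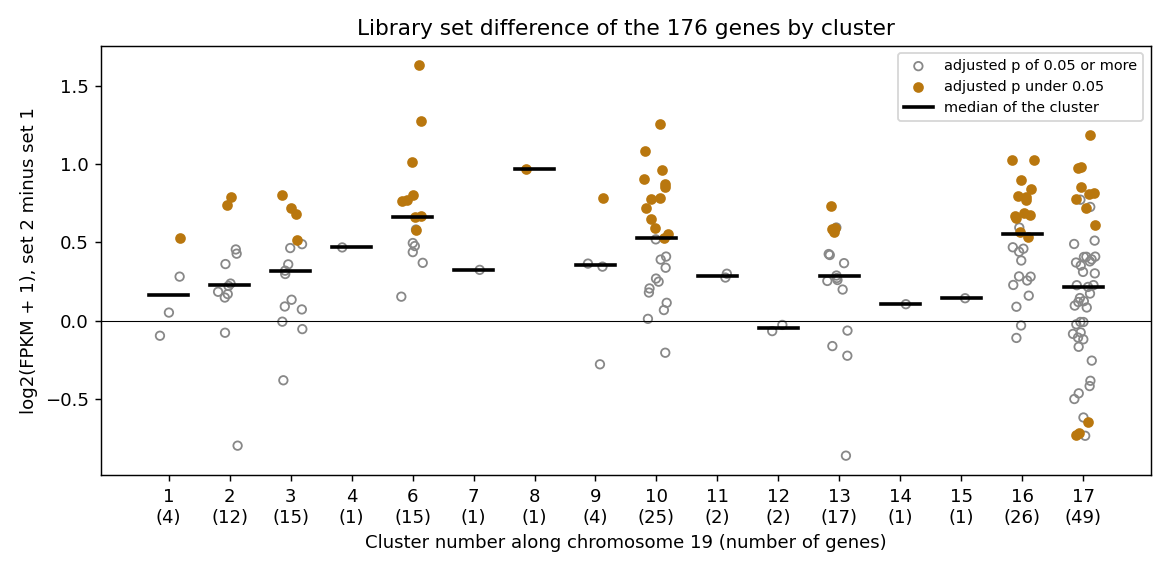
Set 2 minus set 1 in log2(FPKM + 1) for each of the 176 members, by cluster number along chromosome 19 with the number of members in brackets; filled points passed limma at an adjusted p under 0.05 and bars are cluster medians. The bars of clusters 6, 10 and 16 stand at 0.66, 0.53 and 0.55, and the 3 filled points under 0 are all in cluster 17.

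ZNF580 had 33.0, 32.6 and 46.8 FPKM in set 1 and 23.7, 20.3 and 21.7 in set 2. No set 2 library reached a set 1 library (log2 difference −0.73, SE 0.17, adjusted p = 0.0243 by limma). ZNF581 had 24.8, 33.4 and 34.4 FPKM in set 1 and 19.6, 20.2 and 15.2 in set 2. ZNF446 had 3.60, 6.04 and 6.55 FPKM in set 1 and 2.89, 3.01 and 3.06 in set 2 (log2 difference −0.65, SE 0.18, adjusted p = 0.0402 by limma). ZNF784, with 2.63, 3.99 and 4.73 FPKM in set 1 and 2.37, 1.95 and 1.89 in set 2, did not pass (adjusted p = 0.0669 by limma).

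Set 1 was itself uneven. In 13 of 176 members (7.39%) the BCL2L11 and TRIM9 libraries of set 1 both lay above the other 4 libraries, and in 80 (45.5%) both lay below them, where 21.6% and 28.4% of all genes did. The 13 had a median transcript length of 1968 bases and the 80 a median of 3672 bases. ZNF787, with 13.7, 30.4 and 38.3 FPKM in set 1 and 26.4, 23.3 and 20.8 in set 2, was one of the 13. The set differences of BCL2L11 and TRIM9 ranked the members alike (Spearman's rho 0.74 over 176 genes), and that of GFP did so less (rho 0.42 and 0.39). These values are across genes that share libraries, and are given without a test.

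Transcript length moved with the set difference, in the members as in all genes. Members with under 2 set 1 libraries at the floor are included in the counts below. Among the 31 members with transcripts under 2000 bases the median difference was −0.03, and 3 were higher (9.68%) and 2 lower (6.45%), where 5.75% and 22.98% of all genes of that length were. It was 0.28 in the 43 from 2000 to 3000 bases, 0.47 in the 45 from 3000 to 4000 and 0.58 in the 57 of 4000 or more, of which 30 were higher (52.6%) and 0 lower. Over all tested genes of the same lengths the medians were −0.32, −0.01, 0.25 and 0.53, and in the longest class 51.6% were higher. The members' median exceeded that of all genes in each class, by least in the longest. Spearman's rho between length and set difference was 0.43 over the 176 members and 0.58 over all genes, as a description across genes. What part transcript length had in the difference was not tested.

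**Figure D5:**
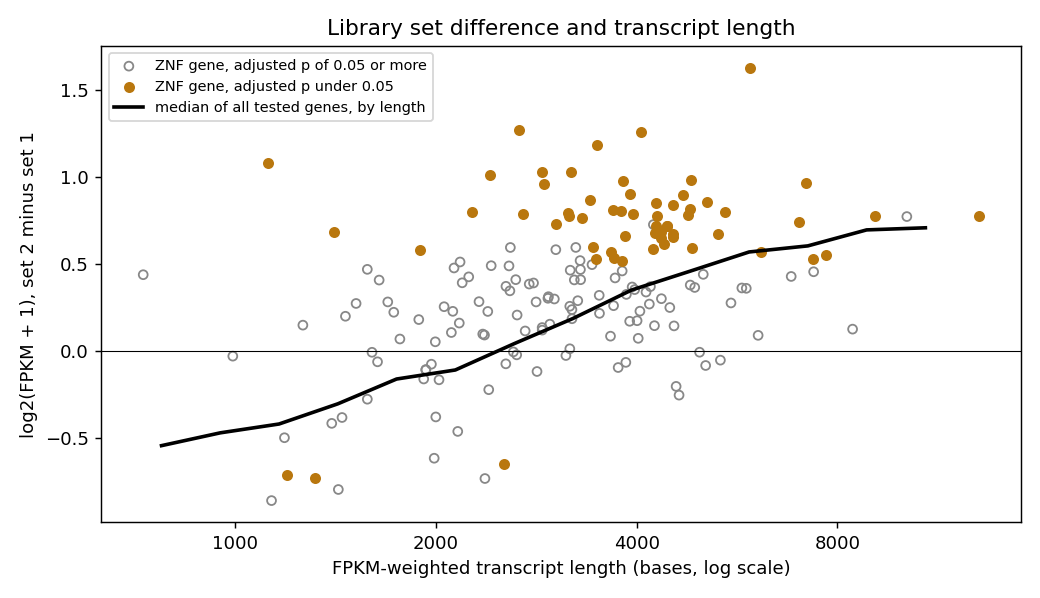
Set 2 minus set 1 in log2(FPKM + 1) against FPKM-weighted transcript length in bases (log axis) for the 176 members, filled where limma gave an adjusted p under 0.05; the black line joins medians of all tested genes in length bins. Most members of 2000 to 4000 bases lie above the line, and the line passes through the middle of the longer ones.

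In several members the reads were also assigned to different transcripts from library to library. The values of single transcripts come from the authors' assignment of reads that transcripts share. ZNF714 was assigned on average mainly to a transcript of 8752 bases, at 1.75, 1.0005 and 1.08 FPKM in set 1 and 5.09, 4.99 and 4.99 in set 2. In the TRIM9 library of set 1 an 898-base transcript stood higher, at 1.19 FPKM. ZNF649 had its 3192-base transcript at 0.691, 0.653 and 0.745 FPKM in set 1 and 2.94, 2.395 and 2.404 in set 2. In ZNF615 the leading transcript of 4122 bases did not follow the gene: it had 1.47, 0.269 and 0.375 FPKM in set 1 and 0, 0.598 and 1.07 in set 2, and its own set difference was −0.13. A 2229-base transcript of ZNF615 was listed at 0 in all 3 set 1 libraries and at 1.68, 1.29 and 0 in set 2. ZNF562 had its 12639-base transcript at 1.58, 1.69 and 1.49 FPKM in set 1 and at 0, 2.69 and 2.504 in set 2, so that for this transcript alone the BCL2L11 difference was 0.97 where that of the gene was −0.92.

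ZNF317 was assigned on average mainly to a 3955-base transcript, at 6.31, 7.43 and 5.81 FPKM in set 1 and 14.5, 9.75 and 7.77 in set 2. Its 4056-base transcript, with 7 exons in place of 6, had 10.1, 2.81 and 2.51 FPKM in set 1 and 2.44, 1.46 and 1.98 in set 2. The lower level of ZNF317 with either trigger was thus listed mostly under one transcript in set 1 and under the other in set 2. ZNF428 had 1 leading transcript of 1162 bases throughout, with 15.3, 65.4 and 52.6 FPKM in set 1 and 20.1, 20.0 and 20.8 in set 2.

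Of 21 genes of the TRIM28 silencing pathway, 0 passed in any comparison involving a trigger, 8 were higher in set 2 and 0 lower, with a median set difference of 0.25, where 22.5% of all tested genes were higher and 10.3% lower. SMARCAD1, a chromatin remodeller that works with TRIM28, had 7.64, 5.02 and 6.15 FPKM in set 1 and 19.9, 16.8 and 20.3 in set 2. ATRX, which deposits histones on silenced repeats, had 9.98, 7.65 and 7.19 FPKM in set 1 and 22.3, 19.7 and 22.7 in set 2. TASOR, a subunit of the HUSH silencing complex, had 14.3, 10.2 and 10.4 FPKM in set 1 and 27.5, 24.0 and 23.9 in set 2. TRIM28 itself had 192, 187 and 257 FPKM in set 1 and 160, 136 and 137 in set 2 and did not pass (adjusted p = 0.0598 by limma). SETDB1 lay at 14.1 to 20.4 FPKM with overlapping sets. Of 19 zinc finger genes of chromosome 19 with other names, 8 reached the floor, 1 of them (ZFP30) was higher in set 2 and 0 were lower. ZFP30 had 2.27, 1.61 and 1.204 FPKM in set 1 and 4.64, 3.10 and 4.43 in set 2.

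The list of short-lived transcripts had 3 of 16 tested genes higher and 1 lower in set 2, with a median difference of 0.18, and the 7 heat shock genes had 0 in either direction and a median of −0.00. Of 10 housekeeping genes 0 were higher and 3 lower, with a median of −0.51. The shares of all tested genes were again 22.5% higher and 10.3% lower. In the 3 trigger comparisons 0 genes of these lists passed. The heat shock genes had medians of −0.16 for BCL2L11 minus GFP, −0.55 for TRIM9 minus GFP and 0.87 for BCL2L11 minus TRIM9. In the same order the short-lived transcripts had −0.24, −0.099 and 0.025, and the housekeeping genes −0.17, −0.053 and −0.080. The genes of lowest p with TRIM9, ATF3 and DNAJB1, had log2 differences from GFP of −1.55 and −1.71.

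Some values of related genes are uncertain. Of the members, 36 overlapped another tested gene on the opposite strand and 24 one on the same strand, and no source used here says whether the authors' counting used strand. ZNF580 and ZNF581 share most of their span. Duplicated members also share stretches of sequence, and how reads that fit several genes were divided is not given. Library precision is limited by depth for the weakest members: the aligned bases per library averaged 3683 in the lowest member, with a median of 33328, beside 93304 over all genes.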

How the data were processed

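Poly-A RNA of 6 HEK293T libraries was analysed, 2 per group, and the 6 small RNA libraries were not used. The tools listed in the submitters' processing notes are StringTie 2.1.3, STAR, cutadapt 3.4 and DESeq2 1.20.0, and the build is hg38. Per the file headers, the deposited transcript tables give exon coverage (a signal) and FPKM per transcript, which are the values the authors' assembly tool assigned. The authors' deposited gene tables hold a q-value and p-value beside the log2 and the plain ratio of the fold change. No read counts were used, so no count test was run.

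FPKM was summed per gene, and 15183 of 67053 genes with at least 1 FPKM in at least 2 libraries were tested. limma 3.58.1 (R 4.3.3) was fitted to log2(FPKM + 1) of all 6 libraries with a trend, groups only for the triggers and groups plus library set for the sets, with Benjamini-Hochberg adjustment over all genes. The test was tried on simulated data with known changes, and the outcome is not used here. In the trigger trials the simulated libraries varied independently, without a shared set difference. The trial therefore does not check the trigger fits under such a difference. Aligned bases are coverage times transcript length. Python 3.11.15 made the other summaries.

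The members, lists and tests were chosen with earlier results of these data known. Genes named were the 12 of highest level, 5 on either side of the floor, up to 6 called per direction or the 4 of lowest p per comparison and direction, known repressors, cluster leaders, the extremes of length and the lowest p of each list. Alternatives changed the scaling, pseudocount, filter, variance model, genes or samples fitted, transcript choice and library set term, and left out each library.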

Additional observations from a re-analysis of the deposited data

Results flagged for a closer look

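Differences between the groups were flagged in 3 abundant members. Their level was higher in set 2 than in set 1 with GFP and lower with both triggers, and this difference between groups was not tested. For ZNF428 the log2 difference, set 2 minus set 1, was 0.41 with GFP, −1.69 with BCL2L11 and −1.31 with TRIM9. For ZNF444 it was 0.36, −0.75 and −1.0002, and for ZNF787 0.90, −0.37 and −0.85. The transcripts of the 3 genes are 1133 to 2156 bases long on average. The directions were not particular to them: ZNF358 had 0.91, −0.24 and −0.90, and ZNF579 had 0.11, −0.95 and −1.36. In 21.6% of all genes, and in 7.39% of the members, the BCL2L11 and TRIM9 libraries of set 1 both lay above the other 4.

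Signal was also listed for copies of members on sequence outside the assembled chromosomes, which were not counted as members. The copies of 3 member symbols reached the floor and so were among all genes tested. ZNF780A had a mean of 1.45 FPKM there and 1.45 on chromosome 19, ZNF546 had 0.923 and 0.923, and ZNF100 had 1.11 and 1.10. For ZNF780A and ZNF546 the values of both copies were the same, so the level given on chromosome 19 is one share of what was listed for the gene.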

How the results depend on the processing

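The count of 0 members called in each trigger comparison held under every scaling, filter, pseudocount, variance model, sample choice and left-out library tried. The labels do not pair the libraries, and the set differences of the 3 groups had Spearman correlations of 0.42, 0.39 and 0.74 over the members. With library set as a replicate block, limma again called 0 members in each trigger comparison, with 3, 15 and 3 at an unadjusted p under 0.05 for BCL2L11 against GFP, TRIM9 against GFP and BCL2L11 against TRIM9, beside 1, 2 and 0 without the block. Of all 15183 genes 543, 958 and 457 did so with the block. Without the plasmid term 68 members were called between the sets.

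In the same order of comparisons, with set 2 minus set 1 last, the members' medians were −0.083, −0.094, 0.031 and 0.30 with median-of-ratios scaling, −0.081, −0.095, 0.031 and 0.23 with quantile normalisation, −0.20, −0.18, 0.026 and 0.57 with a pseudocount of 0.1, −0.071, −0.061, −0.037 and 0.18 with an FPKM floor of 5, and −0.043, −0.079, 0.057 and 0.17 after a lowess correction for transcript length. With no filter the first, second and last were −0.065, −0.061 and 0.25, and with the leading transcript alone the second and last were −0.080 and 0.25. Leaving out single libraries gave −0.33 to 0.096, −0.37 to 0.077, −0.16 to 0.23 and 0.36 to 0.40. The sign changed without BCL2L11 replicate 1 (0.065) or GFP replicate 2 (0.096) in the first, TRIM9 replicate 1 (0.077) or GFP replicate 2 (0.051) in the second, and TRIM9 replicate 1 (−0.15) or BCL2L11 replicate 2 (−0.16) in the third. A lone library of a group is there assumed to vary like the others, and in the set comparison its group term takes it up, so that 4 libraries decide.

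The 60 members called between the sets became 16 with the floor of 5 (of 35 tested), 17 with the length correction, 12 to 81 without single libraries, and 0 with no filter (87 at an unadjusted p under 0.05 by limma) or with leading transcripts alone (64 at an unadjusted p under 0.05 by limma). The cause of these changes was not tested, and some of these settings also fitted other numbers of genes or libraries. The counts of all genes under these settings are not given, so these changes may not be particular to the members. Among named genes, ZNF429 changed sign in BCL2L11 against GFP with its leading transcript (−0.045) and without GFP replicate 1 (−0.10, and 0.94 without GFP replicate 2), ZNF562 with its leading transcript (0.97), and ZNF615 between the sets with its leading transcript (−0.13). Members numbered 109 with a floor of 2, 35 with a floor of 5 and 98 with the floor in all 6 libraries, and the clusters 8 with a gap of 2 Mb. The counts of zinc fingers per protein were not run. With 2 libraries per group and members near 1 FPKM, small differences between triggers were not detectable. Large differences at high levels did not pass either. DNAJB1, not a member, had 458 and 456 FPKM with GFP and 139 and 139 with TRIM9. Its log2 difference was −1.71 (adjusted p = 0.99985 by limma). The count of 0 members called therefore does not limit their differences to small ones.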

Other observations

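The zinc finger genes that stayed below the floor differed from the members in the shares of several promoter motifs. Of 58 with a RefSeq promoter, 46.6% held CCAATCA and 81.0% held GGGCGG, against 24.1% and 63.9% of the members. The TATA box, the E-box and the cAMP response element occurred in 0 of the 58, against 3.16%, 5.06% and 5.06% of the members. At such low shares 0 of 58 sets no clear difference. The core CCGGAAG had nearly the same share in both, 43.1% and 44.3%. Their median GC content was 57%, against 61% in the members. These are counts over related genes, given without a test. For genes at 0 in all libraries the order of transcript names set the leading transcript, and with it the promoter. The 2 groups also come from clusters in unlike parts: 15 of 42 genes reached the floor in cluster 6 and 25 of 27 in cluster 10. Level and cluster cannot be told apart here.

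The set difference also varied with the level of the members. Of the 176 members 53 had under 2 set 1 libraries at the floor, and 21 of the 57 called higher were among them. Such members could be tested only with the help of set 2, so the shares below are descriptions. The 79 members under 2 FPKM had a median set 2 minus set 1 difference of 0.35, and 20 of them (25.3%) were higher in set 2 by limma, where 15.4% of all genes of that level were. The 61 members of 2 to 4 FPKM had a median of 0.51, with 26 higher (42.6%, against 27.2% of all genes of that level). The 21 members of 4 to 8 FPKM had a median of 0.23, with 8 higher (38.1%, against 32.4%) and 1 lower. The 15 members of at least 8 FPKM had a median of −0.08, with 3 higher and 2 lower, where 20.4% of all genes of that level were higher and 16.6% lower. ZNF507, the only member of its cluster, had one of the larger differences, 0.97.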
